A study of Homo sapiens with 4 samples.

Results

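The heat shock chaperone genes examined were HSPA1A, HSPA1B, HSPA8, HSP90AA1, HSP90AB1, HSPH1, DNAJB1, HSPD1, HSPE1, and BAG3, 10 of the 58243 genes listed. They were chosen by name as chaperone genes controlled by the transcription factor HSF1 and matched from symbol to Ensembl gene ID. The rule of choice contains no measured value, although results of these data were known when it was written. mRNA was profiled by RNA-seq in 293T, a human embryonic kidney cell line, after transient transfection with a control RNA or with a mimic of miR-1, miR-122, or miR-124, and each of the 4 conditions had 1 library. The mimics are chemically made RNA duplexes that carry the mature miRNA as their active strand. The sample labels place RNA isolation 48 h after transfection, whereas the study's methods state a shorter time. All groups were transfected, and no untransfected or heat-treated cells were analysed here, so the values describe transfected cells at one time.

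Chaperones bind unfolded or newly made proteins and help them fold. In unstressed cells HSF1 is held inactive, in part by the chaperones themselves. When unfolded proteins accumulate, HSF1 forms trimers, binds heat shock elements in the promoters of chaperone genes, and activates them. A heat shock element is a run of inverted GAA units. HSP70 proteins (HSPA1A, HSPA1B, HSPA8) bind short hydrophobic stretches in a cycle driven by ATP, with DNAJB1, an HSP40 protein, stimulating ATP hydrolysis and with HSPH1 and BAG3 acting as nucleotide exchange factors. HSP90 proteins (HSP90AA1, HSP90AB1) act later in folding, on kinases, receptors, and other client proteins, while HSPD1 and HSPE1 form the HSP60 and HSP10 chaperonin of mitochondria.

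The heat shock element was searched for in the RefSeq promoter windows of GRCh38.p14, each of 300 bases with 250 before the start site. The words were GAANNTTC and TTCNNGAA for a pair of units, each of which is its own reverse complement and so covers both strands, and GAANNTTCNNGAA and TTCNNGAANNTTC for 3 units in a row. These longer words contain the shorter ones. At least 1 pair was found in a window of 7 of the 10 genes, against 13.5% of 35116 windows of all genes. Some genes had more than 1 window, so a count of genes and a share of windows are not on the same scale. A run of 3 units was found in windows of HSPA8, HSP90AA1, HSP90AB1, and HSPD1, against 0.49% of all windows. The elements below are shown because heat shock elements are the sites that HSF1 binds in promoters. The 10 genes were chosen by name and not by these words, but as genes controlled by HSF1. Such elements were therefore likely from the choice itself, and the counts are a description and not independent evidence. Capitals mark the units, and each sequence is given 5′ to 3′ on the strand of its gene.
HSPA1A, chr6:31815429-31815452, plus strand: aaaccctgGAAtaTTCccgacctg
HSPA1B, chr6:31827625-31827648, plus strand: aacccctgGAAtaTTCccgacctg
HSPA8, chr11:123062171-123062199, minus strand: cgggccccTTCtgGAAggTTCtaagatag
HSP90AA1, chr14:102087097-102087140, minus strand: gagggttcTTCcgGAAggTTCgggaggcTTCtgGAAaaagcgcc
HSP90AB1, chr6:44247770-44247798, plus strand: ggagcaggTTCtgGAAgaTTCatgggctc
DNAJB1, chr19:14518459-14518482, minus strand: gcggggcgGAAggTTCtggagggg
HSPD1, chr2:197500060-197500090, minus strand: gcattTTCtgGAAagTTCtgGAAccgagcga

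The HSPA1A unit pair lay 106 to 99 bases before the start site and that of HSPA1B 105 to 98 bases before it. In HSPA8 the units lay closer, 55 to 43 bases before the start, and a further run of 3 lay 230 to 218 bases before it. The words were not in the windows of HSPH1, HSPE1, and BAG3. HSPE1 and HSPD1 are transcribed in opposite directions from neighbouring starts, and the window shown for the HSPD1 element ends 50 bases from the start of HSPE1 in GENCODE release 44. The window searched for HSPE1 was set by its RefSeq start. It began at base 197500129, past the end of the sequence shown for HSPD1 at 197500090, and so did not cover that element. These matches are letters in a window and were not measured as binding sites.

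The study used these libraries to follow mRNAs carrying sites for the transfected miRNAs, so the 3′ UTR (the longest one annotated for a gene) was also searched for the word complementary to the seed, bases 2 to 8, of miR-1 and of miR-122. The seed of miR-124 was not searched here. The word for miR-1, ACATTCC, was in HSPD1 and in no other of the 10 genes, against 14.8% of 11155 genes. The word for miR-122, ACACTCC, was in DNAJB1 and in no other of the 10, against 9.8% of genes. Both sites are shown because they are the matches behind the seed statements made for these genes below, with the matched word in capitals.
HSPD1, chr2:197486794-197486822, minus strand: aaaacatttgtACATTCCtgatactgggt
DNAJB1, chr19:14515525-14515553, minus strand: ccagaccctgtACACTCCtccttttctgt

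The deposited values were FPKM (fragments per kilobase of gene length, scaled to the reads of the library), 1 value for each gene and library. Values were whole multiples of what 1 read is worth, so the reads behind them could be recovered. The libraries had been divided by 6624306 (control), 9452232 (miR-1), 5887055 (miR-122), and 6465436 (miR-124) reads, and the miR-1 library was therefore the deepest. Of 5 genes taken as 293T markers, VIM was the highest and PAX2 was near 0, at 0.0192 to 0.0492 FPKM. A ratio is the FPKM with a mimic divided by the FPKM with the control RNA, given with an exact 95% interval from the reads. Such intervals cover counting error and do not cover variation between cultures. With 1 library per condition no test of a condition was possible, and no p-value is given. The control library enters all 3 ratios of a gene, and all 3 then share its error. A gene counted as past the threshold when its ratio was at least 1.5 or at most the inverse.

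Because the length behind most FPKM values spanned introns as well as exons, genes were compared with each other by library-scaled reads per kilobase of annotated exon, in the same units as FPKM. On that scale HSP90AB1 was the highest member in each library, at 354 in the control, 383 after miR-1, 360 after miR-122, and 354 after miR-124. In the control library it was followed by HSPA8 at 240, HSP90AA1 at 222, HSPA1B at 182, and HSPD1 at 92.7. BAG3 stood at 23.6, HSPH1 at 12.9, HSPE1 at 12.8, and HSPA1A at 2.45. DNAJB1 stood at 25.5 with the smallest length that gave whole reads, 15000 bases, and at 76.4 with 45000 bases, which also did and is closer to its annotated distance, so its level and its place in the order are uncertain by a factor of 3. The abundant group was thus made up of the HSP90 genes, the constitutive HSPA8, 1 of the 2 heat-inducible HSP70 copies, and the mitochondrial HSPD1. DNAJB1 could not be placed inside or outside it. The split of reads between the HSP70 copies is uncertain, because they share most of their coding sequence, as described below. The exon length counted each base annotated as exon in any transcript of a gene, 4849 bases for HSPA8 and 2980 for HSP90AB1. HSPA8 had more reads than HSP90AB1 in the control, 7719 against 6995, and fewer with miR-124, 6547 against 6830. The order, with HSP90AB1 first, therefore also depends on the length used. Without replicates, neighbours in this order cannot be separated by their spread. HSP90AA1 was above HSPA8 in the miR-122 library, at 229.9 against 228, and below it in the other 3.

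**Figure D1:**
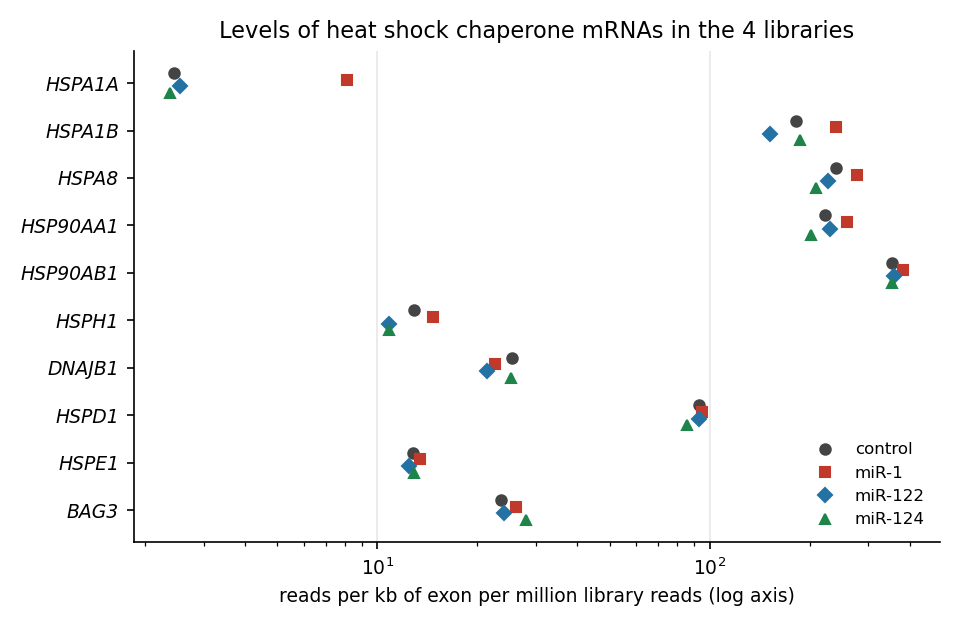
Level of each of the 10 genes in the 4 libraries, as reads per kb of annotated exon, scaled to library size, on a log axis. Each symbol is 1 library and DNAJB1 is drawn for a length of 15000 bases; HSP90AB1 is highest, at 354 to 383, and HSPA1A is lowest, at 2.38 to 8.10, with its miR-1 symbol apart from the other 3.

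In the miR-1 library, 9 of the 10 genes were above their control level, and the median log2 ratio of the 10 was 0.17. All 10 had at least 200 reads over the 4 libraries, HSPA1A only through its miR-1 library, which held 184 of its 296 reads. Over all 12596 genes tested, which met the same minimum, the median log2 ratio was −0.05 and 42.9% were above control. Among the 6466 genes with at least 1000 reads, the median was −0.01 and 48.4% were above control. One member, HSPA1A, was past 1.5-fold higher, against 1% of all genes, and no member was past 1.5-fold lower, against 4.96% of all genes. Because HSPA1A met the minimum through the library in which it was high, its count is a description and is not evidence against that share. The interval of the ratio lay above 1 for 6 members, below 1 for 1 member, DNAJB1, and held 1 for HSPD1, HSPE1, and BAG3. The share of all genes with an interval above or below 1 is not given here for any mimic, so such counts describe the members only. The differences of the other 9 members were small, with ratios of 0.891 to 1.32.

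In the miR-122 library, 5 of the 10 genes were above control and 5 below, with a median log2 ratio of −0.02. The median over 12594 genes was also −0.02, and 46.4% of them were above control. No member was past 1.5-fold in either direction, against 1.4% of all genes higher and 2.41% lower. The interval lay below 1 for HSPA1B, HSPA8, HSPH1, and DNAJB1 and above 1 for HSP90AA1, whose lower bound was 1.00.

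With miR-124, 4 of the 10 were above control and 6 below, and the median log2 ratio was −0.02, beside −0.05 over 12592 genes, of which 43.6% were above control. Again no member was past 1.5-fold, against 1.92% of all genes higher and 3.14% lower. The interval lay below 1 for HSPA8, HSP90AA1, HSPH1, and HSPD1 and above 1 for BAG3. The sign of the member median turned for these last libraries, miR-122 and miR-124, when ratios were centred on the median of all genes, to 0.00 and 0.02.

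**Figure D2:**
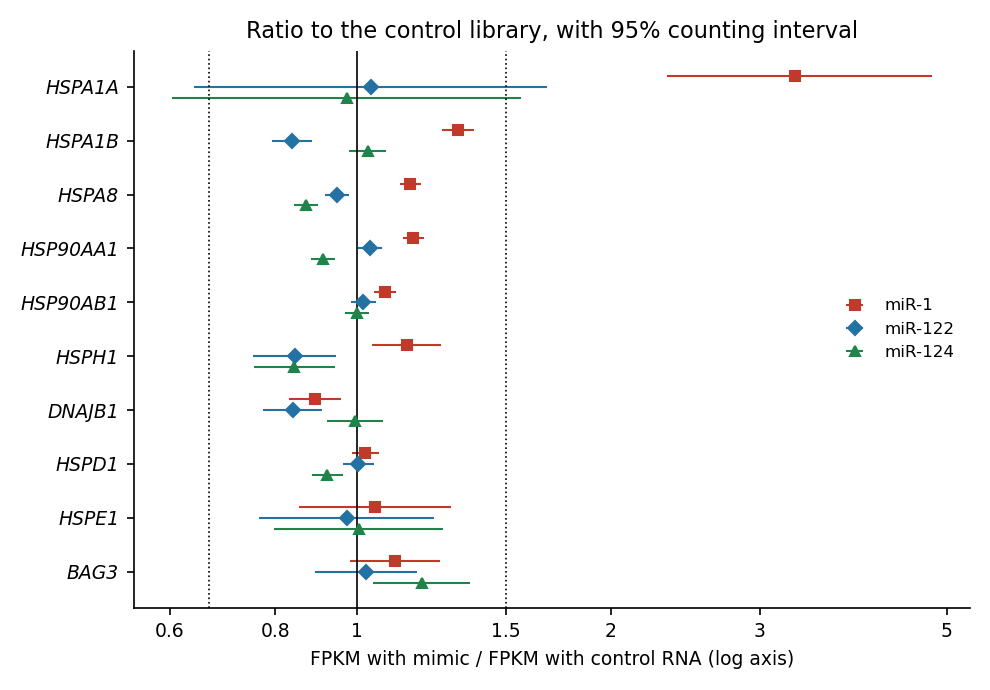
Ratio of FPKM with each mimic to FPKM with the control RNA for the 10 genes, on a log axis, with the exact 95% counting interval as a bar. The solid line marks a ratio of 1 and the dotted lines 1.5-fold in either direction; HSPA1A with miR-1, at 3.31, is the only point beyond a dotted line.

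HSPA1A and HSPA1B encode the heat-inducible HSP70 and lie side by side on chromosome 6, HSPA1A at 31815543 to 31817946 and HSPA1B at 31827738 to 31830254 of GRCh38, both on the plus strand. HSPA1A stood at 2.37 FPKM in the control, 7.84 after miR-1, 2.46 after miR-122, and 2.31 after miR-124, from 39, 184, 36, and 37 reads. The miR-1 library was alone in being high, and the other 3 had 36 to 39 reads. The ratio with miR-1 was 3.31 (2.33 to 4.80), and it was 3.29 against the mean of the other 2 mimic libraries. The ratios with miR-122, 1.04 (0.642 to 1.68), and with miR-124, 0.972 (0.603 to 1.56), had intervals that held 1 and were wide, since few reads were counted.

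HSPA1B was far more abundant, at 182 FPKM in the control, 239 after miR-1, 152 after miR-122, and 187 after miR-124, from 3034, 5700, 2257, and 3049 reads. It was thus highest with miR-1 and lowest with miR-122, and the highest value was 1.57 times the lowest. The ratios were 1.32 (1.26 to 1.38) after miR-1, 0.837 (0.792 to 0.884) after miR-122, and 1.03 (0.979 to 1.08) after miR-124.

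The copies cannot be fully separated by short reads. Of the 50-base windows of the HSPA1A transcript, 75.1% were also in the HSPA1B transcript, 91.7% in the coding region and 0% in the UTRs, and how reads matching both were assigned is not given in the sources used here. Summed over both copies, FPKM stood at 184 in the control, 247 after miR-1, 155 after miR-122, and 189 after miR-124. The ratio of the sum was 1.34 (1.28 to 1.40) after miR-1, 0.840 (0.795 to 0.887) after miR-122, and 1.03 (0.978 to 1.08) after miR-124. The heat-inducible HSP70 was therefore higher with miR-1 by the sum as well, but below 1.5-fold. HSPA1A took 1.27% (0.904 to 1.73) of the reads of the pair in the control, 3.13% (2.70 to 3.60) after miR-1, 1.57% (1.10 to 2.17) after miR-122, and 1.20% (0.846 to 1.65) after miR-124, with exact binomial intervals. The share with miR-1 lay above the intervals of the other 3 libraries. Whether this is a difference in transcripts or in the assignment of reads was not tested.

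**Figure D3:**
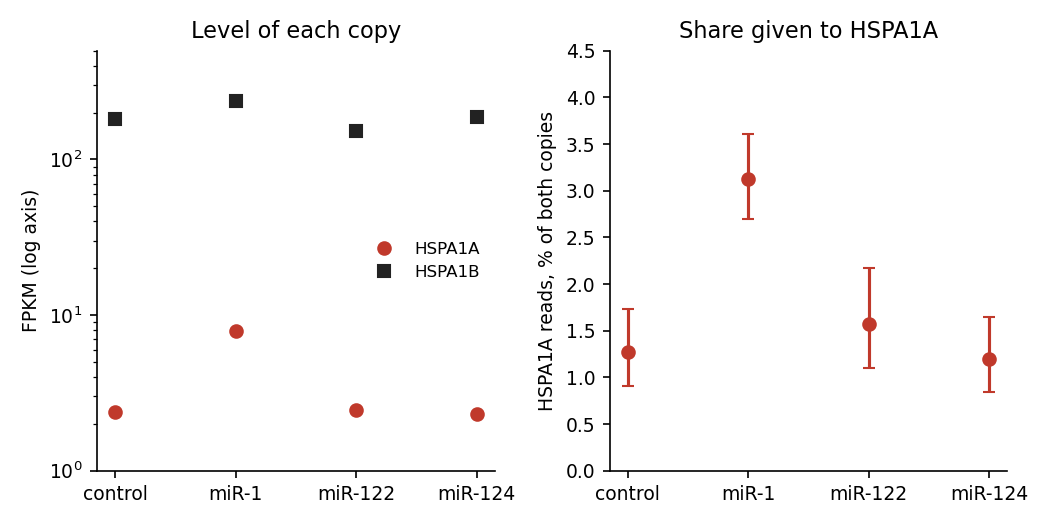
Left, FPKM of HSPA1A and HSPA1B in each library on a log axis; right, the share of the reads of both copies that was given to HSPA1A, in percent, with the exact 95% binomial interval. HSPA1B exceeds HSPA1A in each library, and the HSPA1A share is 3.13% with miR-1 and 1.20% to 1.57% in the other 3 libraries.

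HSPA8, the constitutive cytosolic HSP70, stood at 203 FPKM in the control, 235 after miR-1, 192 after miR-122, and 176 after miR-124, from 6499 to 12734 reads. It was highest with miR-1 and below control with the other mimics. The ratios were 1.16 (1.12 to 1.19), 0.947 (0.916 to 0.979), and 0.869 (0.841 to 0.898) in that order, and none of the intervals held 1.

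HSPH1, the HSP110 protein that serves as a nucleotide exchange factor of HSP70, stood at 3.94 FPKM in the control, 4.51 after miR-1, 3.32 after miR-122, and 3.32 after miR-124. The values with miR-122 and miR-124 were nearly equal and the lowest. The ratios were 1.14 (1.04 to 1.26) after miR-1, 0.844 (0.753 to 0.945) after miR-122, and 0.843 (0.754 to 0.941) after miR-124.

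BAG3, which also releases nucleotide from HSP70 and directs clients to autophagy, stood at 2.44 FPKM in the control, 2.70 after miR-1, 2.50 after miR-122, and 2.91 after miR-124. BAG3 was the one member highest with miR-124. Its ratios were 1.11 (0.980 to 1.254) after miR-1, 1.03 (0.891 to 1.18) after miR-122, and 1.19 (1.05 to 1.36) after miR-124.

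DNAJB1, the stress-inducible HSP40 that works with HSP70, stood at 13.9 FPKM in the control, 12.4 after miR-1, 11.7 after miR-122, and 13.8 after miR-124. It was the one member below control with miR-1 and the one highest in the control. Its ratio was 0.891 (0.830 to 0.956) after miR-1, 0.838 (0.773 to 0.910) after miR-122, and 0.995 (0.922 to 1.07) after miR-124. The miR-122 seed word shown above begins at base 894 of its 1654-base 3′ UTR, and 0.838 was, with 0.837 for HSPA1B, which has no such word, the lowest of the 10 ratios with miR-122. With the length of 45000 bases the reads would be 3 times as many, so these intervals may be too wide, while the ratios do not depend on the length. TECR, on the opposite strand, covers 94.9% of the span annotated for DNAJB1 in GENCODE release 44, and whether the counting used strand is not given in the sources used here. TECR itself stood at 1.94 FPKM in the control and at 2.12 to 2.18 with the mimics.

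HSP90AA1, the inducible cytosolic HSP90, stood at 19.2 FPKM in the control, 22.4 after miR-1, 19.9 after miR-122, and 17.5 after miR-124. It was highest with miR-1 and lowest with miR-124, with ratios of 1.17 (1.13 to 1.20), 1.04 (1.00 to 1.07), and 0.911 (0.881 to 0.941). HSP90AB1, the constitutive form, stood at 137 FPKM in the control, 148 after miR-1, 139 after miR-122, and 137 after miR-124. Its ratios were 1.08 (1.05 to 1.11), 1.02 (0.982 to 1.05), and 1.00 (0.967 to 1.03), and the highest of its 4 values was 1.08 times the lowest. The constitutive form thus varied less among the libraries than the inducible form, whose highest value was 1.28 times its lowest.

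HSPD1, the mitochondrial HSP60, stood at 23.4 FPKM in the control, 24.0 after miR-1, 23.5 after miR-122, and 21.6 after miR-124. The miR-1 seed word shown above begins at base 435 of its 660-base 3′ UTR, and its ratio with miR-1 was 1.02 (0.985 to 1.06). The ratio was 1.00 (0.963 to 1.05) with miR-122 and 0.922 (0.885 to 0.962) with miR-124. HSPE1, its HSP10 lid, stood at 6.76 FPKM in the control, 7.09 after miR-1, 6.57 after miR-122, and 6.79 after miR-124, from 134 to 232 reads, and the intervals of its 3 ratios held 1. The HSPE1 ratios were 1.05 (0.852 to 1.29), 0.973 (0.766 to 1.23), and 1.00 (0.798 to 1.26), so a difference of the size seen for HSPD1 with miR-124 was not detectable at this depth. HSPE1 lies wholly within the annotated span of HSPD1 on the opposite strand. The readthrough gene HSPE1-MOB4 covers 91.8% of HSPE1 on its own strand and was listed at 0 in all 4 libraries. HSPE1 pseudogenes held 7.94% to 11.6% of the reads of HSPE1 and its pseudogenes together, and whether these neighbours took reads from HSPE1 was not tested.

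Among the 10 genes, 8 were highest in the miR-1 library, and 5 were lowest with miR-124, 3 with miR-122, and 2 in the control. For 8 of the 10 the highest value was less than 1.5 times the lowest, the exceptions being HSPA1A at 3.40 and HSPA1B at 1.57. The matching shares of all genes are not given here, so these counts describe the 10 genes and not a trait particular to them. A sum of 6 hepatocyte marker genes also stood highest in the miR-1 library, at 0.549 FPKM, against 0.0749 to 0.154 in the other libraries. In it TTR and APOA2 had reads only with miR-1 (23 and 5 reads), ALB and AFP were at 0 with miR-1, and FGB was at 0 in all 4 libraries. The 23 and 5 reads rest on the annotated lengths, because a value above 0 in 1 library alone does not fix the length. Summed muscle markers stood at 0.153 FPKM with miR-1 and at 0.0763 to 0.0954 elsewhere, blood markers at 0.0278 with miR-1 and at 0 elsewhere, and neuron markers at 0.0295 to 0.0434 in all libraries. The part of these, and of the greater depth of the miR-1 library, in the chaperone values was not tested.

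The log2 ratio moved with the GC content of the transcript across genes, with Pearson's r of 0.205 (miR-1, 12577 genes), 0.319 (miR-122, 12575 genes), and 0.620 (miR-124, 12573 genes). These genes share their libraries and are not replicates. Transcript GC content ran from 36.9% in HSPE1 and 38.6% in HSPD1 to 58.8% in HSPA1B and 59.8% in HSPA1A, with a median of 48.3% over all genes. When a cubic trend with GC content was subtracted, the member median with miR-1 was 0.27 and that with miR-124 was 0.00. With miR-124 the log2 ratio of HSPD1 then changed from −0.12 to 0.13, that of HSP90AA1 from −0.14 to 0.01, and that of HSPA1B from 0.04 to −0.12. The direction of these 3 differences thus depended on whether the GC trend was subtracted. HSPH1 with miR-124 went from −0.25 to −0.01 and HSPA8 from −0.20 to −0.06, so most of their difference from control was also gone. With miR-122, HSPA8 likewise went from −0.08 to −0.003. BAG3 with miR-124 went from 0.25 to 0.14, and HSPA1A with miR-1 stayed past 1.5-fold.

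The other genes of the chaperone network were taken by list, and those with at least 200 reads were described. No gene so described was past 1.5-fold in any library. HSF1, which drives the response, stood at 4.54 FPKM in the control, 5.15 after miR-1, 5.13 after miR-122, and 6.19 after miR-124. It was above control with each mimic, with ratios of 1.13 (1.03 to 1.248), 1.13 (1.01 to 1.26), and 1.36 (1.23 to 1.505). The last was larger than the ratio of any of the 10 chaperone genes with miR-124, all taken without subtracting the GC trend. The HSF1 ratio after that subtraction is not given here. Against the mean of the other mimics, the HSF1 ratios were 0.911, 0.904, and 1.204. HSF2 stood at 0.913 FPKM in the control and at 1.05, 0.880, and 0.820 with the mimics in that order, and the intervals of its ratios held 1. HSBP1, which binds HSF1 trimers, had ratios of 0.928 to 0.982 with intervals that held 1. HSF4 and HSF5 were under the minimum of 200 reads. HSF4 stood at 0.774 FPKM in the control, 0.523 after miR-1, 0.226 after miR-122, and 0.823 after miR-124, from 27, 26, 7, and 28 reads, and HSF5 had at most 3 reads in a library.

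Of 18 other heat-inducible genes, 16 had enough reads, and 12, 7, and 8 of them were above control with the mimics in the same order, with median log2 ratios of 0.15, −0.01, and −0.03. HSPB1, a small heat shock protein that holds unfolded proteins, was the highest of them with miR-1, at 205 FPKM in the control and 289 with miR-1, a ratio of 1.41 (1.35 to 1.49). HSPB1 was also the highest of the list with miR-122, at 1.24 (1.17 to 1.31), a library in which HSPA1B was below control. Its miR-124 ratio was 1.29, so HSPB1 stood above the shared control library in each mimic library. Taken against the mean of the other mimics, the HSPB1 ratio fell to 1.12 for miR-1 and 0.915 for miR-122. CHORDC1, an HSP90 partner, was the lowest with miR-122, at 0.720 (0.640 to 0.810), from 4.97 FPKM in the control and 3.58 with miR-122. With miR-124 the extremes were ZFAND2A at 1.35 (1.03 to 1.77) and DNAJB4 at 0.752 (0.616 to 0.915).

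CCT is the cytosolic chaperonin, a ring of 8 related subunits that folds actin and tubulin. All 8 subunit genes were above control with miR-1, from CCT6A at 1.03 (0.980 to 1.09) to CCT5 at 1.249 (1.21 to 1.29), with a median log2 ratio of 0.19. In each of the other 2 mimic libraries 1 of the 8 was above control, for miR-122 CCT5 at 1.02 (0.975 to 1.06) and for miR-124 CCT7 at 1.05 (1.01 to 1.09). The medians there were −0.04 and −0.08, and they turned to 0.04 and 0.10 once the GC trend was subtracted. The miR-1 library was thus the one in which most chaperone genes of both the heat shock and the CCT group stood above control.

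Of 7 mitochondrial chaperone and protease genes, 6, 4, and 5 were above control in the order used above, with median log2 ratios of 0.19, 0.02, and 0.14. LONP1, the matrix protease, was the highest with each mimic, at 1.39 (1.28 to 1.51), 1.35 (1.23 to 1.48), and 1.36 (1.24 to 1.49). These ratios share the control library, and against the mean of the other mimics they were 1.03, 0.982, and 0.993. HSPBP1, a nucleotide exchange factor of HSP70, likewise had ratios of 1.46 (1.31 to 1.64), 1.30 (1.15 to 1.48), and 1.31 (1.16 to 1.48), which were 1.12, 0.940, and 0.947 against the other mimics.

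The HSP70 cochaperones, 15 with enough reads, had median log2 ratios of 0.03, −0.01, and −0.09. The lowest of them were DNAJB5 with miR-1 at 0.737 (0.534 to 1.02), BAG5 with miR-122 at 0.826 (0.685 to 0.996), and BAG4 with miR-124 at 0.721 (0.585 to 0.887). Against the mean of the other mimics these ratios were 0.628, 1.01, and 0.895. BAG5 was also below control with miR-1, at 0.825, and with miR-124, at 0.813. The 8 HSP90 cochaperones had medians of 0.07, 0.03, and 0.03. CDC37, which brings kinases to HSP90, was the highest of them with miR-1, at 1.21 (1.13 to 1.30), and with miR-124, at 1.15 (1.06 to 1.24). Against the mean of the other mimics the CDC37 ratios were 1.08 and 1.00. FKBP5, an immunophilin bound to HSP90, was the lowest with miR-122 at 0.868 (0.770 to 0.978) and with miR-124 at 0.747 (0.661 to 0.843). The FKBP5 ratios against the mean of the other mimics were 1.00 and 0.805. Among 6 other HSP70 genes the medians were 0.08, −0.03, and −0.10. HSPA9, the mitochondrial HSP70, was the highest with miR-1 at 1.15 (1.10 to 1.21) and HSPA13 the lowest at 0.727 (0.629 to 0.841), while HSPA5, the HSP70 of the endoplasmic reticulum, was the highest with miR-122 at 1.18 (1.12 to 1.24).

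**Figure D4:**
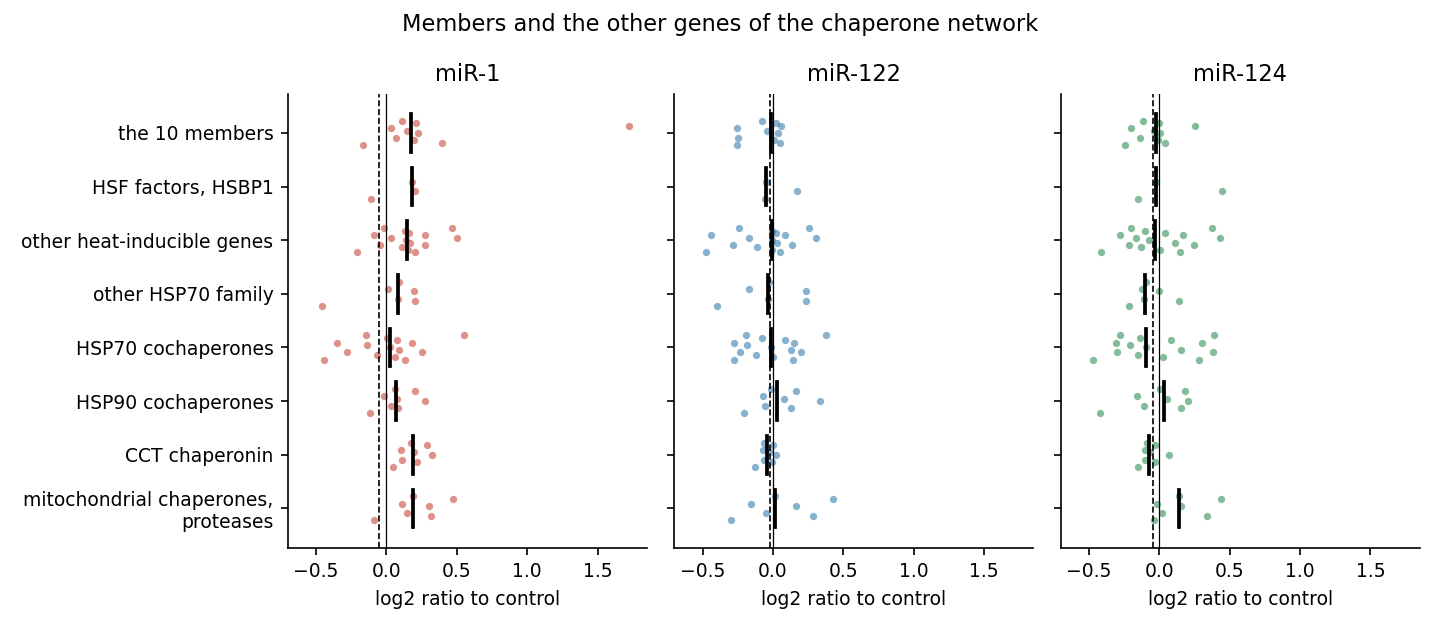
Log2 ratio to control with each mimic for the 10 members and the other lists of the chaperone network, for genes with at least 200 reads. Points are genes, thick bars list medians, the thin line a ratio of 1, and the dashed line the median of all genes tested; with miR-1 the medians of the members (0.17) and of CCT (0.19) lie above the all-gene median of −0.05, and the isolated point is HSPA1A.

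The 3 log2 ratios of 6458 other genes with at least 1000 reads were compared with the median profile of the 10 members (0.17, −0.02, and −0.02) by Euclidean distance, over 3 ratios from 4 libraries. The nearest was CCT8, a CCT subunit, with 0.18, −0.02, and −0.03. It was followed by AIMP2, a scaffold protein of the aminoacyl-tRNA synthetase complex, with 0.18, −0.01, and −0.01, and by TPI1, the glycolytic triosephosphate isomerase, with 0.17, −0.04, and −0.03. COPS3 of the COP9 signalosome had 0.20, −0.02, and −0.02, and MORF4L1, a chromatin protein, had 0.16, −0.01, and −0.05. The profile of the chaperone genes was therefore one that genes outside the network also had.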

How the data were processed

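Total RNA of 4 samples, 1 per condition, was sequenced as single-end reads from mRNA-seq libraries. Per the labels and the study's methods, the authors aligned the reads to GRCh38 with HISAT2 2.0.0 (base calling by CASAVA 1.8) and deposited FPKM values per Ensembl gene. The counting program, annotation, and strand setting are not given in the sources used here. Symbols and spans were taken from GENCODE release 44.

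The reads were recovered from the values. The divisor of each library came from genes at 1 read, and each gene's length was its annotated start-to-end distance, or otherwise a whole number giving whole reads (tolerance 0.002) in all libraries. This succeeded for 99.26% of 32358 genes above 0. Recovered reads summed to 101.25% to 101.42% of the divisors. Ratios used FPKM without a pseudocount, for genes above 0.004 in both libraries, the authors' detection limit, and with at least 200 reads over the 4 libraries. Intervals were exact Clopper-Pearson intervals. Recovery and intervals were tested on simulated data with counting error only and with lengths close to those annotated. Some recovered lengths lay further off, among them those of HSPA1A and DNAJB1, and such cases were not simulated. Named genes were all members, the HSF genes, the highest and lowest gene of each other list with each mimic, and the 5 nearest profiles. One gene that this rule names is not reported here. The members and lists were chosen with earlier results of these data known. Alternatives were pseudocounts of 1 and 0.1, another reference, centring, a GC trend, another fold, and other filters. Leaving out HSPA1A, HSPA1B, and HSPE1, the level per exonic kilobase, the longer length of DNAJB1, and the minimum of 1000 reads for all genes were added after seeing the data. Scripts ran under Python 3.11.15 with pandas 2.3.3, scipy 1.17.1, numpy 2.4.6, and, for figures, matplotlib 3.10.9.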

Additional observations from a re-analysis of the deposited data

How the results depend on the processing

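No paired analysis was possible because no condition had more than 1 library, and for the same reason no replicate could be left out. With miR-1 the member median log2 ratio stayed between 0.13 and 0.27 under the alternatives run. With the lower of the thresholds tried, 2 members were past it with miR-1, HSPA1A and HSPA1B. Without HSPA1A, HSPA1B, and HSPE1, 0 members were past 1.5-fold with miR-1, since HSPA1A had been the only one. Against the mean of the other 2 mimic libraries, 1 member was past 1.5-fold lower with miR-122 and 1 with miR-124, HSPA1A in both cases, since that mean includes the miR-1 library. The shares of all genes at the lower threshold and against that mean are not given here, so those counts describe the members only. Of the 30 member ratios, the pseudocounts moved 0 beyond their counting interval, centring 3, the GC trend 15, and the other reference 15. The sign changed for 0, 2, 6, and 9 of them in that order. The median with miR-124 was −0.12 without HSPA1A, HSPA1B, and HSPE1. The share of all genes past 1.5-fold was 5.96% (miR-1), 3.80% (miR-122), and 5.06% (miR-124), and it rose to 22.0%, 21.6%, and 22.3% without the minimum of 200 reads and to 10.9% (miR-1) and 10.6% (miR-124) with a minimum mean of 1 FPKM in its place. Depth limited HSPA1A and HSPE1 the most, and with 1 library per condition none of the differences can be attributed to a mimic.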
